A study of Mus musculus with 4 samples.

Results

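The 10 genes Fscn1, Cacnb3, Slco5a1, Adcy6, Tmem150c, Nudt17, Anxa3, Il4i1, Serpinb6b and Cd200, which are high in migratory and fully matured dendritic cells, were followed in splenic CD4+ dendritic cells 1 h after an injection of sheep red blood cells (SRBC). They were found by symbol: 10 of 10 were present, at 13 of the 23657 named loci of a table of 30043 loci, since Tmem150c had 4 loci. The groups were 2 libraries from mice given SRBC (1000000000 cells) for 1 h and 2 libraries from control mice given PBS (100 uL). Every mouse was C57BL/6 and heterozygous for Gpr183, an oxysterol receptor that guides their position in the spleen, so the controls carry that allele too. The sort kept CD4+ cells that had CD11c and I-Ab but no CD8, at a stated purity above 99%, and the comparison asks which genes of the mature state had moved by 1 h. The labels give no age or sex of the mice and do not say that libraries came from different animals. The p-values therefore reflect the spread among these 4 libraries alone, and that spread may be technical. For each gene that spread was mostly pooled over all tested loci, since 28.7 degrees of freedom came from the pool and 2 from its own values.

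Dendritic cells at rest sample their surroundings, and on activation they lose that capacity, raise costimulatory molecules, gain the chemokine receptor CCR7 and move into T cell zones. Cells that have completed this change in tissues and in lymph nodes share a set of genes for actin bundling, calcium and cAMP signalling, amino acid breakdown and restraint of T cells. In the spleen the CD4+ subset makes a shorter move, out of the bridging channels and marginal zone towards the T cell zone. RNA was read in bulk, so fewer cells of a type and less RNA per cell cannot be told apart.

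Values are FPKM, fragments scaled to transcript length and library size, so that levels of different genes can be set side by side. From the smallest steps between low values, SRBC libraries 1 and 2 held an estimated 8730000 and 8320000 fragments and PBS libraries 1 and 2 held 8600000 and 9460000, at which 1 FPKM of a 2 kb transcript is worth 16.6 to 18.9 fragments. Genes of the sort were present: Itgax, which encodes CD11c, measured 222 and 253 FPKM in SRBC libraries 1 and 2 and 180 and 212 FPKM in PBS libraries 1 and 2, and Cd4 measured 75.8 and 96.4 FPKM after SRBC and 88.4 and 86.6 FPKM after PBS. Cd8a, of the negative gate, measured 2.43 and 2.46 FPKM after SRBC and 2.63 and 1.20 FPKM after PBS. H2-Ab1, which encodes part of I-Ab, was called higher, at 7751 and 8908 FPKM against 4440 and 3905 FPKM (limma adjusted p = 0.0425), in 7 of 16 other settings. Gpr183 was higher in all 16, at 70.8 and 73.3 FPKM against 21.9 and 18.6 FPKM. The groups also differed in genes of the sex chromosomes: Xist measured 339 and 306 FPKM after SRBC against 0.210 and 0.327 FPKM after PBS, and Ddx3y 0.0307 and 0.00819 FPKM against 17.2 and 20.4 FPKM. All 10 signature genes are autosomal, but sex and treatment cannot be told apart in these libraries. The PBS libraries stood apart from each other. The summed FPKM of 18 early response genes was 1828 in PBS library 2 and 5213 in PBS library 1, that of 6 plasmacytoid dendritic cell markers was 55.2 and 154, and that of 6 neutrophil markers, of which Mpo and Elane were at 0 in library 2, was 11.2 and 65.3. Some markers of other cells moved with treatment: 4 of 5 tested erythroid loci, 3 of 5 neutrophil, 3 of 9 macrophage and 2 of 3 T cell markers were higher after SRBC. The macrophage calls were Spic, Hmox1 and a Cd68 locus that also carries the names Eif4a1 and Senp3. Those of T cells were Il7r and Tcf7, while Cd3e was not called. Of 7 conventional dendritic cell markers Irf4 and Zbtb46 were higher and Batf3 and Clec9a, genes of the CD8+ and cross-presenting subset, were lower: Batf3 measured 34.5 and 39.8 FPKM after SRBC against 53.4 and 67.4 FPKM after PBS, and Clec9a 10.1 and 12.1 FPKM against 20.7 and 16.1 FPKM (limma adjusted p = 0.0277 and 0.0471). Of 3 tested endothelial and stromal markers Pecam1 was lower, at 11.6 and 13.5 FPKM against 22.5 and 24.5 FPKM. No B cell, NK cell or plasmacytoid marker was called. Summed FPKM was 114 and 197 after SRBC and 65.3 and 12.8 after PBS for erythroid markers, and 47.0 and 95.8 against 65.3 and 11.2 for neutrophil markers. Cd3e, which defines T cells, measured 1.77 and 3.25 FPKM against 4.32 and 0.990 FPKM. The part of other cells or subsets in the results was not tested.

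At 1 h 2 of the 10 genes were higher after SRBC, 0 were lower and 8 did not pass the test. The test was limma on log2(FPKM + 1) with Benjamini-Hochberg adjustment over the 11020 named loci that reached 1 FPKM in 2 or more libraries, a filter that all 10 genes passed. The genes that rose were the locus holding Il4i1 and the gene Serpinb6b. Fscn1, Cacnb3, Slco5a1, Adcy6, Nudt17, Anxa3 and Cd200 had not moved beyond the gap between the PBS libraries. Tmem150c was not called either, though its log2 fold change of -0.40 was larger in size than its PBS gap of 0.36. Of all tested loci 13.5% were called higher and 6.2% lower, so the share of signature genes called, 2 of 10, lay near the 19.7% called in either direction. Of those calls 68.5% were higher on the deposited scale and 27.6% to 55.7% after rescaling the libraries in 4 other ways. The median log2 fold change of the 10 genes was 0.14, against 0.070 over all tested loci. In 2 genes both SRBC libraries lay above both PBS libraries and in 1, Tmem150c, both lay below, while 34.3% and 24.7% of tested loci did so.

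**Figure D1:**
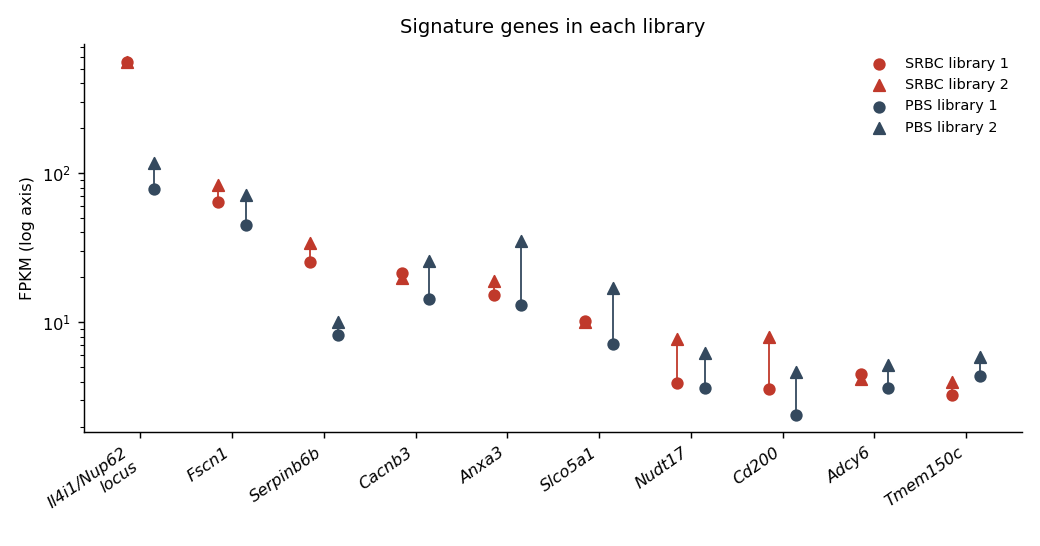
FPKM on a log axis for each of the 10 signature genes, with circles for library 1 and triangles for library 2 of the SRBC group (red) and the PBS group (dark blue). The SRBC symbols lie clear above the PBS symbols for the Il4i1 and Nup62 locus (559 and 557 against 78.7 and 116) and for Serpinb6b, and the PBS symbols are far apart for Anxa3 and Slco5a1.

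Il4i1 encodes a secreted L-amino acid oxidase that consumes phenylalanine and restrains T cells. Its locus measured 559 and 557 FPKM in SRBC libraries 1 and 2, against 78.7 and 116 FPKM in PBS libraries 1 and 2. The SRBC libraries were nearly equal and far above both PBS libraries, and the group means, 558 ± 1.503 and 97.5 ± 26.7 FPKM (SD, n = 2 each), differed 5.73-fold. The log2 fold change was 2.53 ± 0.24 (SE), with a limma adjusted p of 1.03e-09. In the authors' deposited table the q-value was 0.00101, the value it also gives for Serpinb6b. The locus carries 3 names, Il4i1, Nup62 and Nup62-il4i1. Nup62, which encodes a protein of the nuclear pore, overlaps Il4i1 on the same strand (chromosome 7, 44816088 to 44830812 for Nup62 and 44816387 to 44840809 for Il4i1, GRCm38). Its level and its rise therefore belong to the locus, and the share of Il4i1 cannot be told apart from that of Nup62. The genes that overlap it on the other strand moved less: Tbc1d17 measured 17.3 and 12.6 FPKM after SRBC and 8.54 and 10.8 FPKM after PBS, and Atf5 1.66 and 2.37 FPKM against 0.447 and 1.04 FPKM, with limma adjusted p of 0.107 and 0.0593.

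Serpinb6b encodes a mouse intracellular inhibitor of serine proteases (chromosome 13, 32965209 to 32979067). It measured 25.5 and 34.2 FPKM in SRBC libraries 1 and 2, against 8.25 and 10.1 FPKM in PBS libraries 1 and 2, and the groups did not overlap. The mean was 29.8 ± 6.12 FPKM after SRBC and 9.16 ± 1.30 FPKM after PBS (SD, n = 2 each), a 3.26-fold difference with a log2 fold change of 1.59 ± 0.24 (SE) and a limma adjusted p of 7.76e-06. Its locus carries a single name, with an estimated 490 and 620 fragments after SRBC and 160 and 210 after PBS. How reads that match its close relatives were counted is not stated, so its exact level is uncertain. The log2 fold change of Serpinb6b stayed between 1.22 and 1.80 and that of the Il4i1 locus between 1.96 and 2.81 in all 16 other settings tried, and both were called in each.

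Fscn1 encodes fascin, which bundles actin in the long processes of mature dendritic cells (chromosome 5, 142960343 to 142973185). It measured 63.8 and 83.6 FPKM in SRBC libraries 1 and 2, against 44.6 and 71.0 FPKM in PBS libraries 1 and 2. PBS library 2 lay above SRBC library 1, so the groups overlapped. Fscn1 was the highest of the signature genes with a locus of their own, above 92.6% of tested loci in mean level, and it was already at that level after PBS. The log2 fold change was 0.37 ± 0.24 (SE; limma adjusted p = 0.291), with a 95% interval from -0.11 to 0.85, or 0.925-fold to 1.81-fold on the FPKM + 1 scale. Its sign was negative after rescaling to TPM (-0.061) or quantile normalization (-0.14).

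Anxa3, a calcium-dependent phospholipid-binding annexin, measured 15.2 and 18.9 FPKM in SRBC libraries 1 and 2, against 13.0 and 35.3 FPKM in PBS libraries 1 and 2. Both SRBC values lay between the PBS values. PBS library 2 lay above PBS library 1 by 1.37 on the log2(FPKM + 1) scale, a signed gap above that of 99.7% of tested loci. Gaps in the other direction could be larger in size, as in Atf3 (-2.94). The log2 fold change of Anxa3 was -0.33 ± 0.29 (SE; limma adjusted p = 0.471). It depended on the PBS library: it was -1.02 without PBS library 1, where limma called it lower (adjusted p = 0.00244), and 0.36 without PBS library 2. No direction can be given for Anxa3.

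Cacnb3 encodes the beta 3 subunit that brings voltage-gated calcium channels to the membrane. It measured 21.4 and 19.9 FPKM after SRBC, against 14.4 and 25.7 FPKM after PBS. Adcy6, an adenylyl cyclase that makes cAMP, measured 4.48 and 4.19 FPKM after SRBC, against 3.62 and 5.19 FPKM after PBS. In both genes the SRBC values lay close together and between the PBS values. Their log2 fold changes were 0.093 ± 0.25 and -0.0037 ± 0.28 (SE), with upper ends of the 95% interval at 1.52-fold for Cacnb3 and 1.48-fold for Adcy6 on the FPKM + 1 scale. The pair are neighbours, on opposite strands of chromosome 15 (98630840 to 98644529 for Cacnb3 and 98589973 to 98610076 for Adcy6), with 20.8 kb and 0 protein-coding genes between them.

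Slco5a1, a member of the organic anion transporter family, measured 10.1 and 10.1 FPKM in SRBC libraries 1 and 2, against 7.201 and 17.0 FPKM in PBS libraries 1 and 2. As with Anxa3, the SRBC libraries lay between PBS libraries that were far apart, by 1.13 on the log2(FPKM + 1) scale. Its log2 fold change was -0.13 ± 0.28 (SE). Tmem150c, a membrane protein also called tentonin 3, which is tied to mechanically activated currents, measured 3.24 and 3.97 FPKM after SRBC, against 4.35 and 5.84 FPKM after PBS at its most abundant locus. Both SRBC values were lower, yet the log2 fold change of -0.40 ± 0.28 (SE) did not pass (limma adjusted p = 0.34). The next Tmem150c locus measured 2.43 and 0 FPKM after SRBC and 2.23 and 2.69 FPKM after PBS (adjusted p = 0.0843), and the other 2 were below the filter, with values from 0.150 to 1.77 FPKM. An antisense gene, Tmem150cos, is annotated over Tmem150c. Since no label says that the library kit kept strand, the 2 transcripts cannot be told apart, and the same holds for Adcy6 and its antisense gene Gm29331. Nudt17 shares only its last bases with Pias3, which has a locus of its own, and Gm42603 is annotated inside Anxa3 on the same strand.

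Nudt17, of the Nudix family of hydrolases that cleave nucleotide derivatives, measured 3.94 and 7.69 FPKM in SRBC libraries 1 and 2, against 3.65 and 6.19 FPKM in PBS libraries 1 and 2. Cd200, the surface ligand of the inhibitory receptor CD200R on myeloid cells, measured 3.57 and 8.002 FPKM after SRBC, against 2.41 and 4.64 FPKM after PBS. In both genes library 2 of each group was the higher and the groups overlapped. Cd200 had the largest log2 fold change of the 8 genes that did not pass, 0.55 ± 0.31 (SE; limma adjusted p = 0.231), and its 95% interval reached 2.28-fold on the FPKM + 1 scale. Without PBS library 2 the log2 fold change of Cd200 was 0.91 and limma called it higher (adjusted p = 0.0167). It was also among the shallowest measurements, with an estimated 73 and 160 fragments after SRBC and 49 and 100 after PBS. In the authors' deposited table the q-values of the 8 genes ran from 0.219 for Cd200 to 0.988 for Adcy6.

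**Figure D2:**
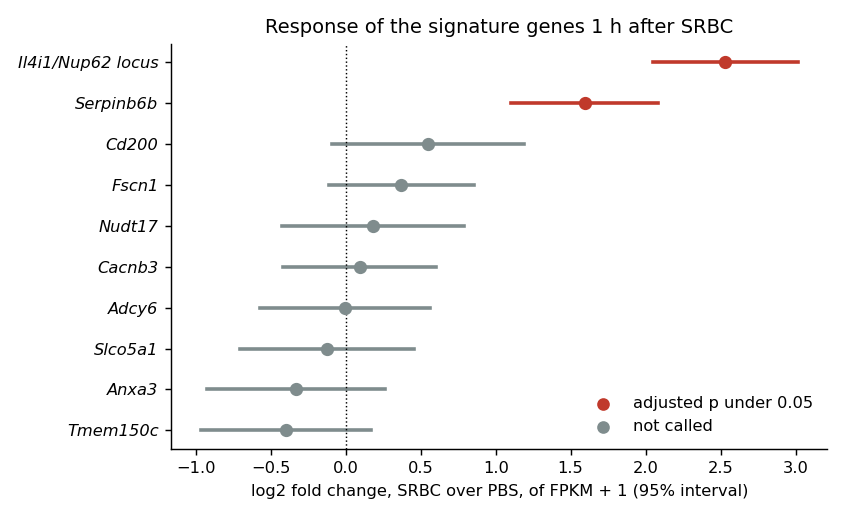
Log2 fold change of SRBC over PBS on the FPKM + 1 scale for the 10 signature genes, as points with 95% limma intervals, red where the adjusted p was under 0.05. The intervals of the Il4i1 and Nup62 locus (2.05 to 3.01) and Serpinb6b (1.10 to 2.08) lie right of 0, and the other 8 cross it.

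The signature genes shared a difference between the control libraries. All 10 had the higher value in PBS library 2 and the lower in library 1, as did 73% of tested loci. In 7 of the 10 genes PBS library 2 was higher by at least 0.5 on the log2(FPKM + 1) scale, as in 17% of tested loci. The median of PBS library 2 minus library 1 was 0.64 over the 10 genes and 0.21 over all tested loci. Such gaps were not particular to the signature. In the list of 26 further mature dendritic cell genes described below, PBS library 2 was the higher in 20, with a median gap of 0.35. The gap was 1.24 in H2-M2 and 0.96 in Tmem123 of that list. Over the 55 genes of the 4 maturation lists the median was 0.22. In size, the PBS gap exceeded the difference between the SRBC and PBS means in 7 of 10 genes and 42.5% of tested loci. In 4 of 10 (Cacnb3, Slco5a1, Adcy6 and Anxa3) both SRBC libraries lay between the PBS libraries, against 11.9% of tested loci. SRBC library 2 exceeded SRBC library 1 in 6 of the 10 genes, as in 70.5% of tested loci. The median gap there, library 2 minus library 1, was 0.27 over the signature genes and 0.15 over all tested loci, and of the 10 genes only Nudt17 and Cd200 differed by 0.5 or more. The early response, plasmacytoid and neutrophil genes ran the other way, lower in PBS library 2, and their part in the gap was not tested.

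**Figure D3:**
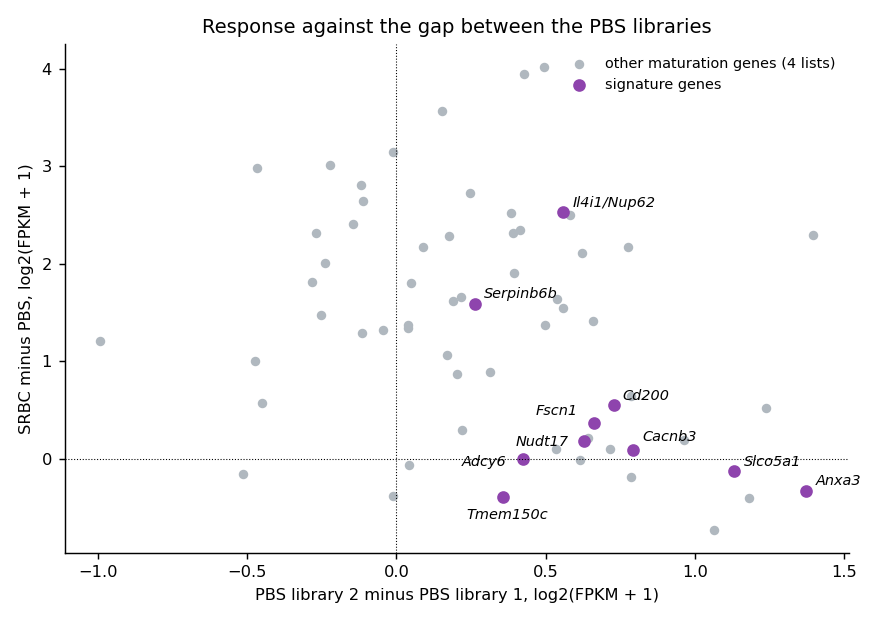
Difference between SRBC and PBS means (vertical axis) against the gap between the PBS libraries, library 2 minus library 1 (horizontal axis), both on the log2(FPKM + 1) scale, for the 10 signature genes (purple) and 55 other maturation genes (grey). All signature genes lie right of 0 on the horizontal axis, up to 1.37 for Anxa3, and 8 of them lie near 0 on the vertical axis.

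Many other genes of dendritic cell maturation had moved by 1 h, but not all. Of 55 such genes in 4 lists, 40 were higher after SRBC, 0 lower and 15 not called, and the median log2 fold change was 1.55. Among all tested loci 13.5% were called higher and 6.2% lower. The lists were chosen with earlier results of these data known.

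Among 15 genes of costimulation and T cell signals 11 were higher, with a median log2 fold change of 2.01. Cd86, a ligand of CD28, measured 219 and 265 FPKM after SRBC, against 18.3 and 20.4 FPKM after PBS. The same list held Ccl22, a chemokine for CCR4 (99.4 and 116 against 5.05 and 7.13 FPKM), and Tnfsf9, the ligand of 4-1BB (84.4 and 86.7 against 3.50 and 5.34 FPKM). Tnfsf4, the ligand of OX40, measured 7.94 and 10.3 FPKM against 0.137 and 0.128 FPKM. For Cd86, Ccl22 and Tnfsf9 the SRBC values were clear of the PBS values and the limma adjusted p was at most 1.05e-13. Cd40, Cd80 and Cd83 rose as well, by log2 fold changes of 2.28, 2.01 and 2.32.

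All 7 genes of a migration list were higher (median log2 fold change 1.80). Ccr7 itself, which leads dendritic cells to T cell zones, measured 611 and 717 FPKM after SRBC, against 97.3 and 89.5 FPKM after PBS (log2 fold change 2.81 ± 0.23 SE, limma adjusted p = 6.51e-11). Icam1, an adhesion molecule for lymphocyte integrins, Marcksl1, an actin-linked substrate of protein kinase C, and Myo1g, a class I myosin, rose by log2 fold changes of 2.18, 2.11 and 1.80. In Ccr7 and Fscn1, both genes of movement, the 95% intervals of the log2 fold change did not meet, since that of Fscn1 ended at 0.85.

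In the list of regulatory genes 5 of 7 were higher (median log2 fold change 1.01). Cd274, which encodes the inhibitory ligand PD-L1, measured 268 and 287 FPKM after SRBC, against 54.0 and 48.7 FPKM after PBS, and Fas, a death receptor, 16.1 and 19.9 FPKM against 3.40 and 4.77 FPKM. Ebi3, a cytokine subunit, and Pdcd1lg2, which encodes PD-L2, rose by log2 fold changes of 1.29 and 0.87, the second not called without either SRBC library. Cd274 rose by 2.41 on the log2 scale, while Cd200, also a ligand that restrains immune cells, differed by 0.55 and did not pass. Socs2, a cytokine signalling inhibitor singled out once its values were known, measured 7.72 and 8.39 FPKM after SRBC, against 6.93 and 17.0 FPKM after PBS. Its PBS values were as far apart as those of Slco5a1. The count of regulatory genes called changed with the library left out, and not all of them were higher. Without PBS library 1 the log2 fold change of Socs2 was -0.99.

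Of 26 further genes of mature dendritic cells 17 were higher and 0 lower (median log2 fold change 1.39). The 9 not called were Nav1, Apol7c, Bcl2l14, Zmynd15, Net1, Spint2, Tnfrsf4, H2-M2 and Tmem123. Their log2 fold changes ran from -0.38 in Nav1 to 0.52 in H2-M2, so these genes, like most of the signature, did not pass. Mreg, a melanosome transport protein, measured 414 and 466 FPKM after SRBC, against 72.2 and 66.8 FPKM after PBS. Lad1, a filament-anchoring protein, measured 39.9 and 45.4 FPKM against 5.49 and 3.70 FPKM, and Stat4, a transcription factor of interleukin 12 signalling, 65.6 and 84.1 FPKM against 10.4 and 13.9 FPKM. Ramp3, which modifies calcitonin-family receptors, rose too, at 9.78 and 9.53 FPKM against 0.419 and 0.215 FPKM.

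Genes of the resting state and of the first minutes of activation gave mixed counts. In a list of 11 resting splenic dendritic cell genes 1 was higher (Dtx1), 3 were lower (Clec4a4, Klf2 and Clec4a3) and 7 were not called. Dtx1 was called in only 8 and Clec4a3 in only 10 of the 16 other settings. Clec4a4, a C-type lectin receptor that marks this subset, measured 2.11 and 1.55 FPKM after SRBC, against 3.68 and 7.76 FPKM after PBS. Leaving out PBS library 2 or SRBC library 2 ended the Clec4a4 call and left 1 call in the list. Klf2, a transcription factor of quiescence, measured 58.0 and 43.9 FPKM after SRBC and 215 and 54.4 FPKM after PBS, with overlapping groups, and was not called without PBS library 1 (log2 fold change -0.11, limma adjusted p = 0.84). Among 18 early response genes 8 were higher and 3 lower. Socs3, a feedback inhibitor of cytokine receptors, measured 78.5 and 88.5 FPKM after SRBC and 4.29 and 1.74 FPKM after PBS, and Nfkbia, the inhibitor of NF-kB, 151 and 179 FPKM against 40.7 and 49.0 FPKM. Ier3, an immediate early gene, and Cxcl2, a chemokine, rose by log2 fold changes of 2.59 and 2.39. The 3 lower genes were the transcription factors Fos, Fosb and Atf3, in which PBS library 1 stood far above the other 3 libraries: Fos measured 78.2 and 73.0 FPKM after SRBC and 415 and 104 FPKM after PBS, and Atf3 32.2 and 24.9 FPKM against 219 and 27.8 FPKM. None of the 3 was called without PBS library 1, where their log2 fold changes were -0.46, -0.69 and 0.028. Over the 16 other settings Fos and Fosb were each called in 9 and Atf3 in 7.

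**Figure D4:**
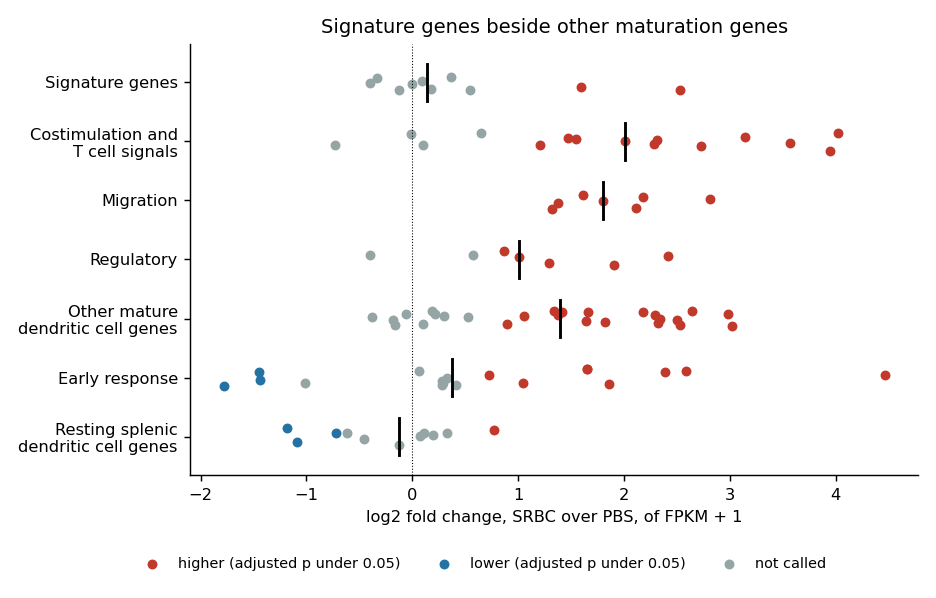
Log2 fold change of SRBC over PBS on the FPKM + 1 scale for each gene of the signature, of 4 maturation lists and of the early response and resting lists; black bars are list medians, colours give the limma call. The signature median, 0.14, lies near 0, while the 4 maturation lists have medians from 1.01 to 2.01.

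The relatives of the signature genes were examined to see whether another member of each family moved. Of 74 relatives 36 were tested, and 7 were higher and 5 lower after SRBC, with a median log2 fold change of -0.095. Over all tested loci 13.5% were called higher and 6.2% lower. In the fascin, calcium channel beta and organic anion transporter families the signature gene was the most abundant member in every library. Fscn2 and Fscn3 were at or under 0.156 FPKM in every library. Cacnb1, a second calcium channel beta gene, measured 6.13 and 4.81 FPKM after SRBC and 3.02 and 2.98 FPKM after PBS (log2 fold change 0.69, limma adjusted p = 0.0785), below Cacnb3 in each library. Among organic anion transporters Slco3a1 came next to Slco5a1, at 4.83 and 4.98 FPKM after SRBC and 5.14 and 3.08 FPKM after PBS, and did not pass.

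In other families a relative was called where the signature gene did not pass. Adcy7, the more abundant adenylyl cyclase in these cells, measured 20.5 and 20.7 FPKM after SRBC, against 42.3 and 47.1 FPKM after PBS, and fell by 1.08 on the log2 scale (SE 0.22, limma adjusted p = 5.57e-04). Tmem150b measured 6.35 and 5.12 FPKM after SRBC, against 15.9 and 31.4 FPKM after PBS, and fell by 1.80 on the log2 scale (adjusted p = 8.22e-06). Both were called lower in all 16 other settings. Nudt9, an ADP-ribose hydrolase, measured 50.7 and 65.3 FPKM after SRBC, against 9.99 and 7.12 FPKM after PBS. The 2 other Nudix genes called, Nudt16 and Nudt13, were lower, and 15 relatives of Nudt17 were not called. Nudt16 was called in 14 of 16 other settings, but Nudt13 in only 8 of 15.

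Anxa2, an annexin of membrane and actin, measured 78.3 and 92.0 FPKM after SRBC, against 21.9 and 24.9 FPKM after PBS (log2 fold change 1.82, limma adjusted p = 1.67e-07). Anxa4, Anxa5 and Anxa11 were also higher, but were called in only 9, 13 and 8 of the 16 other settings. The settings that lost all 3 calls included that without SRBC library 2 and rescaling to TPM. Anxa1 and Anxa3 were the annexins with log2 fold changes under 0. The receptor gene Cd200r1 was lower, with 0.645 and 1.21 FPKM after SRBC against 3.24 and 5.04 FPKM after PBS (log2 fold change -1.41, adjusted p = 7.37e-04), whereas its ligand Cd200 did not pass. That call was lost with no filter on low values (adjusted p = 0.057).

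The rise of Serpinb6b was shared by its neighbour. Serpinb9, an inhibitor of granzyme B that lies 24.2 kb away, measured 22.5 and 31.6 FPKM after SRBC, against 3.88 and 5.32 FPKM after PBS (log2 fold change 2.32 ± 0.25 SE, limma adjusted p = 2.58e-08). Serpinb6a, the close relative of Serpinb6b, measured 6.66 and 7.36 FPKM after SRBC and 6.96 and 5.95 FPKM after PBS and did not pass (log2 fold change 0.10). Serpinb6c, Serpinb6d and Serpinb6e were listed at 0 in all 4 libraries. Of the enzymes that limit T cells by breaking down amino acids, Ido1 stayed at or under 0.284 FPKM and Arg1 at or under 0.836 FPKM, beside 559 and 557 FPKM after SRBC at the Il4i1 and Nup62 locus.

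Promoter windows, from 250 bases before to 50 bases after the start site, were taken from RefSeq (GRCm38.p6) for 7 of the 10 genes, in 10 windows. They are shown for Serpinb6b, which rose, for Il4i1, whose shared locus rose, and for Fscn1 and Nudt17, which did not pass. Capitals mark matches on either strand to the NF-kB letters, which are GGGA, any 4 bases and CC.
Il4i1, chr7:44836038-44836337, plus strand: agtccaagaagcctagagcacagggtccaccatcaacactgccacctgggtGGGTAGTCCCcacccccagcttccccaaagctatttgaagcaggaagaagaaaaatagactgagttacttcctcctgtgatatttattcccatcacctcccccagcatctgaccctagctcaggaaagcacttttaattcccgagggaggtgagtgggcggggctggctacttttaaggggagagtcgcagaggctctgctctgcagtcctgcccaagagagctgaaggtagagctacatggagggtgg
Serpinb6b, chr13:32965011-32965310, plus strand: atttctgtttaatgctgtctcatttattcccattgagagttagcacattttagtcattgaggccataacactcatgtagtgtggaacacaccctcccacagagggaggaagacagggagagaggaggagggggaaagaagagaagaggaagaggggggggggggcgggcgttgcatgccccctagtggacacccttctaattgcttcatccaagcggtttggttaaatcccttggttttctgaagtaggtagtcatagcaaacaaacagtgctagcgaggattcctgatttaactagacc
Fscn1, chr5:142960105-142960404, plus strand: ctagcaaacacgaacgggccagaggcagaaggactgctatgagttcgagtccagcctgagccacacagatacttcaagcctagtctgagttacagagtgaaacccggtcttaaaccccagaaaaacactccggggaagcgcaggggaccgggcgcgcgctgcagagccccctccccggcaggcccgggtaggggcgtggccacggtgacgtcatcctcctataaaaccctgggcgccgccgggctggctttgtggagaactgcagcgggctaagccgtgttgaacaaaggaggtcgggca
Nudt17, chr3:96708511-96708810, minus strand: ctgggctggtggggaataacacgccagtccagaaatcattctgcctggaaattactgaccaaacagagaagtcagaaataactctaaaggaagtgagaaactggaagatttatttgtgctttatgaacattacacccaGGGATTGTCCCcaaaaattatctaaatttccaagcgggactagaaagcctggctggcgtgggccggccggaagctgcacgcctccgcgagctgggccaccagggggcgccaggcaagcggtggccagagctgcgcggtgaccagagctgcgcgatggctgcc

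The Il4i1 window lies past the annotated end of Nup62. It holds 1 NF-kB match, on the reverse strand, that begins 199 bases before the start site. The Nudt17 window holds 2 overlapping matches, 1 on each strand, that begin 112 and 111 bases before the start site and share all but their outer bases. The windows of Serpinb6b and Fscn1 hold none of the 4 motifs searched. In all, 6 of the 10 windows, from 4 of the 7 genes (Il4i1, Nudt17, Cacnb3 and Tmem150c, whose 3 windows overlap), held the NF-kB letters, which 20.7% of 32851 mouse promoter windows hold. Letters of AP-1 (TGANTCA), STAT (TTCNNNGAA) and the interferon response (GAAA, any 2 bases, GAAA) were in 0 of the 10 windows and in 7.81%, 8.3% and 3.44% of all windows. Genes that did not pass thus stood on both sides of the NF-kB match. Serpinb6b, which rose, had no match. The match of Il4i1 cannot be set against a rise, since that of its locus may belong to Nup62. No Nup62 window was among the 10.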

How the data were processed

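Each library has 1 deposited FPKM value for each locus, per the file headers. The submitters' processing notes name Cufflinks 2.1.1, TopHat2 2.0.8b, CASAVA and the mm10 build, and per the labels 100 ng of RNA went into each library. No source names the gene annotation, the scaling of libraries or the read totals. The authors' deposited table also holds q-values of a cuffdiff comparison, per the file headers, which were printed beside the results and not used.

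Columns were matched to libraries by group name and number. The 11020 named loci that reached 1 FPKM in 2 or more libraries were tested. A symbol with several loci was represented by the one with the highest mean. Fits used limma 3.58.1 in R 4.3.3 (lmFit, eBayes with trend) on log2(FPKM + 1), 2 SRBC against 2 PBS libraries, as a two-sided test without covariates, at a threshold of 0.05 after Benjamini-Hochberg adjustment over tested loci. This scale understates changes of low genes. Of the degrees of freedom 2 were residual and 28.7 came from the prior. An exact permutation test of 2 against 2 cannot go below p = 0.333. Depth was estimated from the FPKM step of a single fragment in genes with 1 annotated transcript over 1500 bases. Positions are from GENCODE M21 (GRCm38, the same build as mm10). The procedure was tested on simulated data.

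The members and lists were chosen with earlier results of these data known. By rule the text could name all signature genes, genes overlapping them, up to 4 genes with the smallest p in each list and always Cd86, Cd83, Cd80, Cd40 and Ccr7, their expressed relatives, the genes of the sort and, for every other cell type, its most abundant marker. Not every relative and marker that the rule takes is named. Cd3e, Il7r, Spic, Hmox1, Mpo, Elane, Xist, Ddx3y, Irf4, Zbtb46, Batf3, Clec9a, Pecam1, Socs2, Fos, Fosb, Atf3 and Ier2 were singled out once their values were known. The same holds for the 9 genes not called in the list of 26 further mature dendritic cell genes. The markers Adgre1 and Epb42 were found under older symbols and 4 markers were not matched. Alternatives changed 1 choice at a time: pseudocount, filter, rescaling, variance model, replicate block, unnamed loci, and each library left out, which takes the remaining library to be as variable as the other group's.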

Additional observations from a re-analysis of the deposited data

How the results depend on the processing

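Il4i1's locus and Serpinb6b were called higher in all 16 alternatives, and 6 of the 8 other signature genes in none; 2 to 3 signature genes were called on leaving out single libraries, with Anxa3 added without PBS library 1 and Cd200 without PBS library 2. Of 157 fold changes of signature genes under alternatives (Adcy6, Tmem150c and Cd200 had none at the stricter filter), 142 kept their direction. Fscn1 was 0.37 as deposited, but -0.061 with rescaling to TPM and -0.14 after quantile normalization. Over tested loci the median, 0.070 as deposited, was -0.33 with TPM and 0.19 with a minimum FPKM of 5. Calls over all loci were 68.5% higher as deposited, 55.7% with median-of-ratios, 48.7% with upper-quartile, 49.8% with quantile and 27.6% with TPM rescaling. The total of 2171 calls was 935 with no filter, 1035 without SRBC library 2, 1427 without SRBC library 1, 2194 and 2210 without PBS library 1 and 2, and at most 2450 (robust eBayes) over the 16 alternatives.

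The smaller counts take calls in either direction. With no filter on low values relatives called were 6, regulatory genes 3, resting genes 0 and early response genes 6. Early response calls were 6 with either median-of-ratios or upper-quartile scaling, 5 after quantile normalization and 6 with unnamed loci. Regulatory calls were 3 with TPM. Resting calls were 2 without trend and 0 with unnamed loci. With a library left out, relatives called ran from 7 to 11, regulatory genes from 3 to 7 and resting genes from 1 to 4. The log2 fold change of Atf3 (-1.44) was 0.028 without PBS library 1 and -2.91 without PBS library 2, and that of Ier2 (0.068) was 1.12 and -0.99. The cause of these changes was not tested.

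With the replicate block 2 signature genes and 2304 loci were called, and the numbers share no labelled mouse or batch; deviations of same-numbered libraries correlated at 0.052 across loci. The low levels of Cd200, Nudt17 and Tmem150c limit what could be seen at this depth.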
